A study of Mus musculus with 48 samples.

Results

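The genes of the major histocompatibility complex (MHC) and of antigen presentation were followed through the accessible chromatin of CD8 T cells taken from tumours of young and aged mice. An accessible region, or peak, was given to the protein-coding gene (GRCm38) it overlapped. Failing that, it went to whichever gene body was closest, up to a distance of 100 kb. The regions described are those of genes whose symbol starts with H2-, or is B2m, Tap1, Tap2, Tapbp, Tapbpl, Psmb8, Psmb9, Psmb10, Nlrc5, Ciita, Cd74, Erap1, Calr, Canx or Pdia3. They number 117 of the 53868 peaks and lie at 43 of the 53 genes that meet the rule. H2-Q8, H2-Q9 and H2-T18 are on sequence not placed on a chromosome in the gene table, and H2-M1, H2-M10.2, H2-M10.3, H2-M11, H2-M2, H2-M9 and Psmb8 had no assigned peak.

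MHC class I molecules are a heavy chain paired with beta-2 microglobulin and show peptides from inside the cell to CD8 T cells. Their peptides are cut by the immunoproteasome, carried into the endoplasmic reticulum by the Tap transporter and loaded there with the help of tapasin and chaperones, and Nlrc5 is the transactivator that switches these genes on together. MHC class II molecules show peptides from outside the cell to CD4 T cells, are guided by the invariant chain Cd74 and depend on the transactivator Ciita. In the mouse, class I is made by nearly all nucleated cells, while class II is mainly a feature of B cells, dendritic cells and macrophages and is not typical of T cells.

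The measurement was ATAC-seq, in which a transposase cuts open chromatin and the cut fragments are sequenced. All libraries were made from Cas9-expressing OT-1 CD8 T cells, whose transgenic receptor sees an ovalbumin peptide, transduced with a lentiviral guide RNA and a fluorescent reporter, placed in young or aged hosts 1 day before B16-OVA melanoma cells, and recovered from the tumours at day 15. The 48 libraries form 21 groups, 15 of 2 libraries and 6 of 3. Each library is a pool of sorted cells from several mice, so p-values measure the spread between pools, part of which may be technical. The sources used here do not say whether the sorted states of a perturbation and host age came from the same mice, and values over 3 or 4 states treat them as separate pools.

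The perturbation labels are Zfp219KO (a zinc finger protein), Dusp5KO (a phosphatase that acts on the kinase ERK) and a control called OTC, and OTC is used only as that name. Hosts are named as young or aged without an age. Sorted states follow 2 surface proteins: Tprog cells carry Slamf6 alone (labelled progenitor exhausted), Ttran cells carry Slamf6 and Tim-3 (transitory, effector-like), Tterm cells carry Tim-3 alone (terminally exhausted) and Ttad cells carry neither (age-associated dysfunctional). Ttad is represented by aged hosts alone in the libraries used here. Each aged group has 2 libraries, each young Tprog group has 2, and the young Ttran and Tterm groups have 3. Editing of the targeted genes was not measured in these files, and each perturbation is known only by its label. Reads in peaks ran from 5638413 to 16159054 per library in aged hosts and from 6589023 to 29942755 in young hosts, with a median of 14691505 over all libraries.

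All 8 T cell marker genes (Cd3e, Cd3d, Cd3g, Cd8a, Cd8b1, Cd2, Cd5 and Lck) had a peak, and the sum of their strongest peaks was 8064 to 9111 normalized reads in aged OTC libraries and 8580 to 9378 in young ones. The B cell genes Cd79a, Cd79b and Ms4a1, the macrophage genes Csf1r, Lyz2 and Adgre1, and the melanocyte genes Tyr, Dct and Tyrp1 had no peak in the table. A normalized read is a read divided by 1 scaling factor per library, as deposited. In bulk chromatin, a smaller share of cells with an open site and a site less open in each cell cannot be told apart.

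To show what these genes have in front of their start sites, the 250 bases before the start are given for 4 genes that the results turn on: B2m and the class I heavy chain H2-K1, and the class II chains H2-Aa and H2-Eb1. They come from RefSeq, build GRCm38.p6, and are the windows chr2:122147437-122147686 (plus strand), chr17:34000348-34000597 (minus strand), chr17:34287824-34288073 (minus strand) and chr17:34305617-34305866 (plus strand). Sequences run 5′ to 3′ toward the start site, and capitals mark matches on either strand to 3 motifs.
B2m: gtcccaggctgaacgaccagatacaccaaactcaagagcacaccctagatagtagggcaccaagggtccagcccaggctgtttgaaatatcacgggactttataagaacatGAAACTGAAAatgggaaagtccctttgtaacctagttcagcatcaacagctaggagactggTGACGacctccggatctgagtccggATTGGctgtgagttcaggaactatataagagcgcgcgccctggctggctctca
H2-K1: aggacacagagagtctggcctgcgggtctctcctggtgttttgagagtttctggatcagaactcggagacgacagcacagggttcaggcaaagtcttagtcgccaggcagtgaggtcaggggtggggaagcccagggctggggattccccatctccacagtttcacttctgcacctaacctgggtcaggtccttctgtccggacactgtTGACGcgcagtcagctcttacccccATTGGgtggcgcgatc
H2-Aa: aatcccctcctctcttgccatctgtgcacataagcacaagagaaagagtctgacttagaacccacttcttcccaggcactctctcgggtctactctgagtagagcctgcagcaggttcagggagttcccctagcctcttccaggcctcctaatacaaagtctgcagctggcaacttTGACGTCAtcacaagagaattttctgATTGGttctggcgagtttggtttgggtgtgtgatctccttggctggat
H2-Eb1: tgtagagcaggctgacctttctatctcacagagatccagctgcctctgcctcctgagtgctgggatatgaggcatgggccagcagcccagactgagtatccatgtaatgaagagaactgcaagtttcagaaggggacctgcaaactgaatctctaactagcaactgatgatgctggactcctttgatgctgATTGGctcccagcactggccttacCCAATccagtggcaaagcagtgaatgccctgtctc

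The motifs were CCAAT, the core of the Y box bound by the factor NF-Y, TGACG, the core of the X2 box bound by CREB family factors, and GAAANNGAAA, the core of the interferon-stimulated response element. Of the 43 genes with a peak, 35 had an entry in the promoter table, and of all 53 genes by the rule 42 did. CCAAT was in the 250 bases before the start of 35 of those 42 genes (83.3%), against 34.5% of the 27025 promoters in the table. TGACG was in 17 of the 42 (40.5%), against 17.9% of all promoters, and GAAANNGAAA in 3 of the 42 (7.14%, in B2m, H2-T22 and H2-T23), against 3.04%. Of the 8 class II promoters only 1, that of H2-Aa, held TGACG (12.5%), so the higher share of TGACG came from other genes of the set. In B2m the 3 motifs lay 139 to 130 (GAAANNGAAA), 78 to 74 (TGACG) and 53 to 49 (CCAAT) bases before the start. H2-K1 had TGACG at 41 to 37 and CCAAT at 16 to 12, and H2-Aa had a palindromic pair of overlapping TGACG matches at 74 to 70 and 71 to 67 and CCAAT at 48 to 44. H2-Eb1 had CCAAT at 59 to 55 and at 35 to 31. A match describes letters in the window and is not a measured binding site.

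The peaks were spread over the roles as follows. Class Ib genes, the less variable class I genes of the Q, T and M clusters, held 51 peaks at 17 genes, and the classical class Ia group (H2-K1, H2-D1 and B2m) held 8. Class II genes with Cd74 held 24 peaks at 10 genes, transport and loading 11 at 7 genes, peptide making 6 at 3 genes and the regulators Nlrc5 and Ciita 16. H2-Ke6, a metabolic enzyme gene that carries an H2- symbol only for its place on the chromosome, held 1. Chromosome 17, which carries the mouse MHC, held 89. Of all 117, 60 overlapped the gene body, and the other 57 lay a median of 6233 bp away and at most 42759 bp. The start site of the assigned gene fell inside 22 peaks, counted over the 35 genes with an entry in the promoter table. For the other genes (Cd74, Nlrc5, Ciita, Tap2, Tapbpl, H2-Ab1, H2-Q1 and H2-T24) it was not available. Their peaks may hold it and are not in that count. Member peaks had a median level over libraries of 174 normalized reads, against 93.9 over all peaks, with a range of 10.3 to 4147, and every member peak had at least 1 read in every library. Peak levels are not corrected for width, so they are compared here only within a peak. Many class I genes are near-identical copies and a read can be placed at the wrong one, so values at the Q, T and M genes are uncertain in that respect.

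Some peaks serve more than 1 gene. The B2m peak also overlaps Patl2, the peak assigned to Tap1 holds the start of Psmb8, the strongest Psmb9 peak holds the starts of Psmb9 and Tap1, and the strongest H2-DMa peak holds the start of Brd2. The Tapbp peak overlaps Zbtb22, the Tapbpl peak holds the start of E130112N10Rik, and 5 member peaks overlap a pseudogene. Starts of other non-coding RNA genes lie in the strongest Nlrc5 peak (9330175E14Rik) and in the Calr (1700122E12Rik), Tapbp (Gm19412) and strongest Canx (Gm46280) peaks. The H2-K1 peak at 33980987 holds the start of the non-coding RNA gene AA388235.

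The first comparison was of aged with young hosts, with OTC cells of Tprog, Ttran and Tterm weighted equally (6 aged and 8 young libraries). The column headers number the libraries from 1 to 24 separately in each host age, so whatever that numbering stands for and host age cannot be told apart. Class II sites were more open in aged hosts: 9 of 24 were called higher and 1 lower, with a median log2 fold change of 0.26. Class I sites were more often called lower than higher: 21 of 51 class Ib and 5 of 8 class Ia peaks were called lower, against 1 and 0 called higher. Of 6 peptide making peaks 2 were called lower and 0 higher, and of 11 transport and loading peaks 3 and 1. Among regulators 4 of 16 rose and 2 fell. Calls were made with limma on log2(normalized reads + 1) at a Benjamini-Hochberg adjusted p under 0.05 over all 53868 peaks.

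Over all 117, 49 peaks (41.9%) were called, 15 higher and 34 lower. The background in this comparison was 36.5% of all peaks called in either direction, 17.3% higher and 19.1% lower. The median log2 fold change was -0.11 over members and 0.0023 over all peaks. Of the 22 peaks known to hold the start of their own gene, 1 rose and 11 fell, with a median of -0.14. Peaks of genes without a promoter entry, such as Cd74 and Nlrc5, are not among them. Over the 9981 peaks of the table that hold a start site, 16.4% rose and 13.4% fell, with a median of 0.02. Aged libraries were on the whole shallower, and the part of depth in the age differences was not tested beyond the alternatives in scaling and weighting listed at the end.

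**Figure D1:**
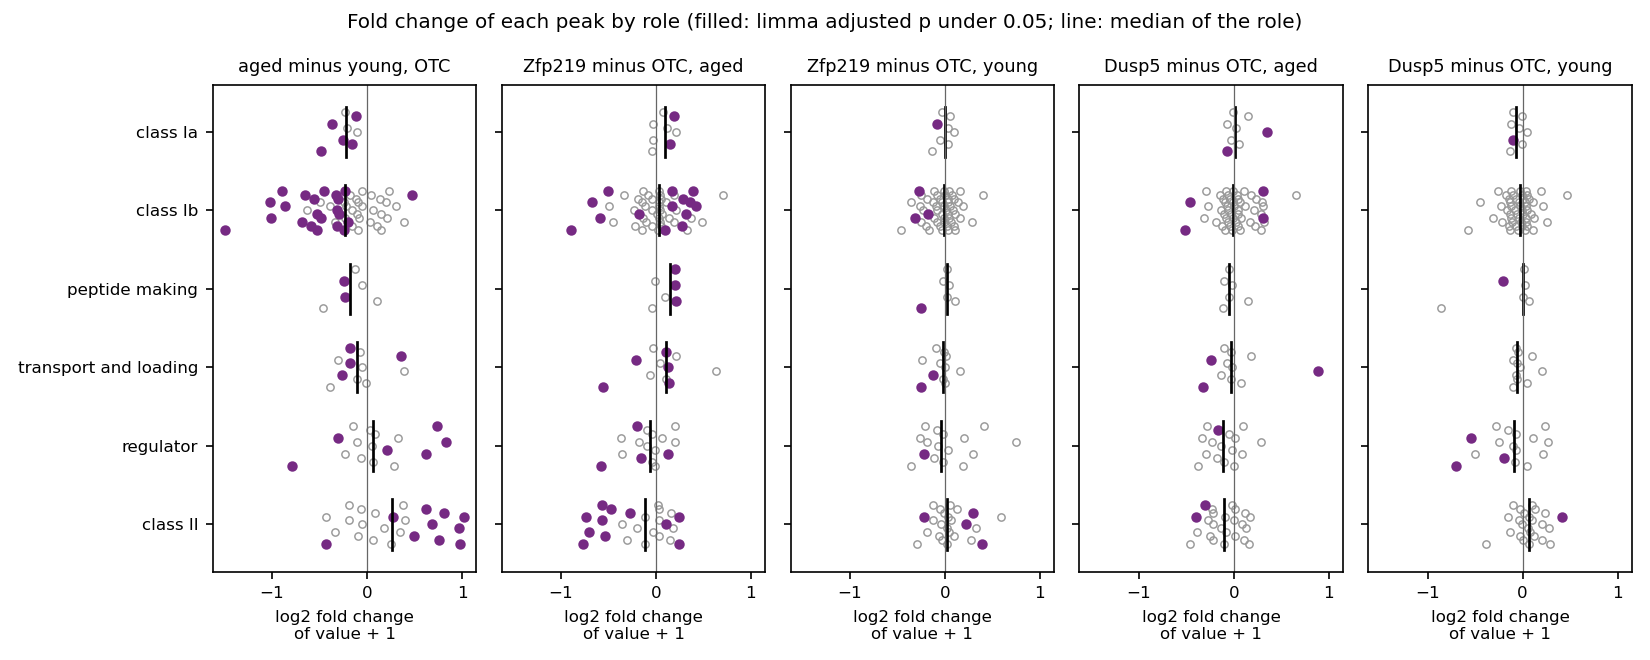
Log2 fold change (horizontal axis) of every member peak, in rows by role in antigen presentation, with a panel for each of 5 comparisons. Each point is a peak, filled where limma called it, and the vertical bar in each row is the median; H2-Ke6 is not drawn. In aged against young hosts the class II median lies above 0 (0.26), while those of class Ia and class Ib lie below it (-0.22 and -0.23).

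The site that moved most clearly lay near H2-Aa, the class II alpha chain of the I-A molecule. It spans chr17:34295580-34296761, 7757 bp outside the gene body and between H2-Aa and H2-Eb1. In aged OTC it held 534 and 535 normalized reads in the Tprog libraries, 436 and 462 in Ttran, and 474 and 505 in Tterm. In young OTC it held 288 and 286 in Tprog, 264, 249 and 199.5 in Ttran, and 210.5, 215 and 246 in Tterm. Every aged library lay above every young one. The log2 fold change was 0.98 (SE 0.08, limma adjusted p = 3.41e-19), and by state it was 0.90 in Tprog, 0.93 in Ttran and 1.13 in Tterm, each called. A weaker neighbour at 34293229, 5406 bp from H2-Aa, also separated the ages, with 297 to 370.3 normalized reads in aged and 137 to 203 in young libraries (log2 fold change 1.03, SE 0.10, limma adjusted p = 8.59e-15). The peak over the H2-Aa start site itself was weak, at a group mean of 40.7 to 84.8 in OTC cells, and was not called for age (log2 fold change 0.35, SE 0.19, limma adjusted p = 0.145).

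H2-Eb2, a second beta chain gene of the I-E family, had its strongest change at 34347529-34348329, 6119 bp from the gene. There aged OTC libraries ran from 222 to 365 normalized reads with a median of 247, and young ones from 112 to 175 with a median of 153. The ranges did not overlap (log2 fold change 0.81, SE 0.11, limma adjusted p = 1.13e-09). By state the log2 fold change was 0.53 in Tprog, which was not called (limma adjusted p = 0.0544), 0.61 in Ttran and 1.29 in Tterm.

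At Cd74, the invariant chain that guards the class II groove, a peak overlapping the gene body (chromosome 18, 60803224 to 60804498) differed by age mainly in the later states. In aged OTC it held 459 and 391 normalized reads in Tprog, 325 and 332 in Ttran, and 303 and 385 in Tterm. In young OTC it held 318 and 413 in Tprog, 244, 240.0 and 195 in Ttran, and 155, 120.3 and 143 in Tterm. The ages overlapped in Tprog and were apart in Ttran and Tterm. The log2 fold change by state was 0.22 in Tprog (limma adjusted p = 0.401), 0.54 in Ttran (0.00594) and 1.29 in Tterm (3.4e-11), and 0.69 over the 3 states (SE 0.09, limma adjusted p = 5.56e-10).

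The start site peak of H2-Eb1, the beta chain of I-E, showed a like spread over states. Aged OTC libraries ran from 207 to 326 with a median of 249 normalized reads, and young ones from 111 to 249 with a median of 130.4. The pooled ranges overlapped through a young Tprog library, yet within each state all aged libraries lay above all young ones (log2 fold change 0.75, SE 0.11, limma adjusted p = 5.67e-09). Other class II sites called higher included a second Cd74 peak at 60804687 (0.97, SE 0.21, limma adjusted p = 8.26e-05), H2-Ab1 at 34257499 (log2 fold change 0.62) and H2-DMb2 (0.50), the last a chain of the peptide exchanger H2-DM. The 1 class II site called lower was at H2-Oa, a chain of the inhibitor of that exchanger (34101467, log2 fold change -0.43, SE 0.07, limma adjusted p = 1.97e-07).

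Ciita, the class II transactivator, moved at several weak sites and not in 1 direction. A peak at 10466272, 13026 bp from the gene, held 40.6 to 140.2 normalized reads in aged and 17.9 to 65.9 in young OTC libraries, ranges that overlap (log2 fold change 0.83, SE 0.24, limma adjusted p = 0.00325). A second at 10521175 had a log2 fold change of 0.74, but its call was lost in 7 of 14 fits that left out a library (lowest 0.53, limma adjusted p = 0.194, without the first aged Tprog library). Another at 10524833 was lower by age (log2 fold change -0.79), and its adjusted p was 0.054 without that same library.

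**Figure D2:**
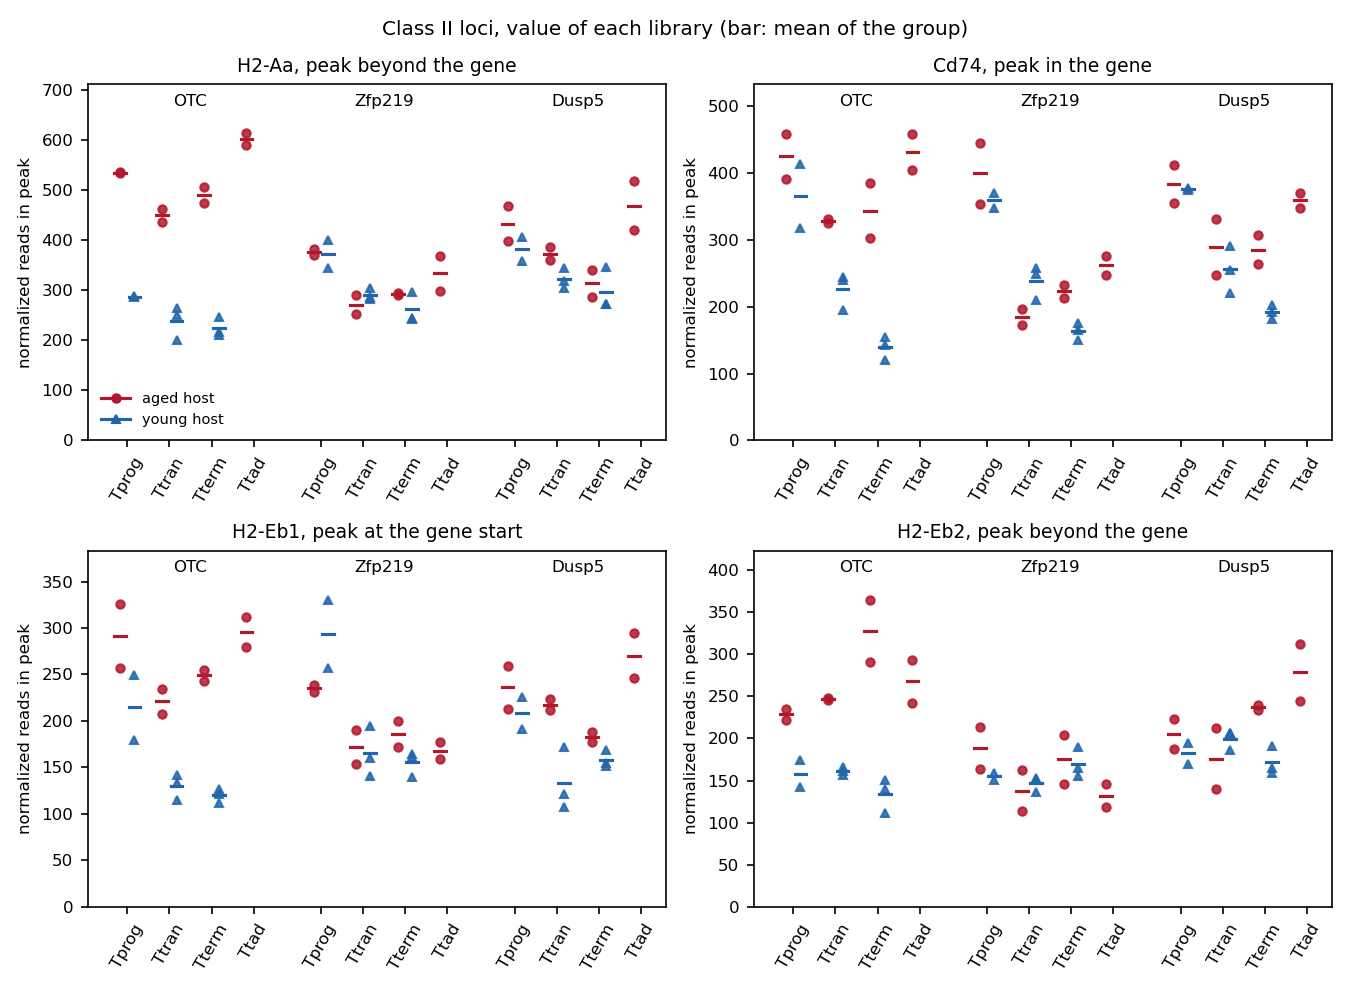
Normalized reads per library (vertical axis) at class II sites of H2-Aa, Cd74, H2-Eb1 and H2-Eb2, by perturbation and sorted state (horizontal axis). Red circles are aged and blue triangles young hosts, 1 symbol per library, and bars mark group means. At H2-Aa the aged OTC libraries sit at 436 to 614, above the young OTC libraries at 199.5 to 288, and the aged Zfp219 libraries lie at 252 to 382.

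On the class I side, B2m, the light chain that every class I molecule needs, was less open in aged hosts. Its start site peak held 1049.6 to 1356 normalized reads over the 6 aged OTC libraries (median 1240) and 1383 to 1525 over the 8 young ones (median 1439). The ranges did not overlap (log2 fold change -0.25, SE 0.04, limma adjusted p = 7.53e-07). By state the log2 fold change was -0.39 in Tprog, -0.20 in Ttran and -0.16 in Tterm, the last not called (limma adjusted p = 0.102).

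H2-K1, a classical class I heavy chain, moved less. Its start site peak held 3892 to 4389 normalized reads in aged and 4283 to 4900.1 in young OTC libraries, with a small overlap between states but none within a state (log2 fold change -0.16, SE 0.03, limma adjusted p = 1.57e-07). H2-D1, the other classical heavy chain, differed by -0.12 (SE 0.04, limma adjusted p = 0.00544), and this call was lost without the first aged Tprog library (adjusted p = 0.0508).

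Class Ib sites included the members with the largest falls. At H2-T22, a class Ib gene recognised by some gamma-delta T cells, a peak inside the gene (36040514 to 36041000) held 79.7 to 182 normalized reads in aged and 185 to 301 in young OTC libraries. The ranges did not overlap (log2 fold change -1.01, SE 0.12, limma adjusted p = 1e-11). A peak of H2-M5 at 36994494 fell most (log2 fold change -1.50, SE 0.33, limma adjusted p = 0.000105), but it is weak, with 3.01 to 26.1 normalized reads in aged and 21.4 to 53.0 in young OTC libraries and ranges that overlap. H2-Q2 at 35353157 (-1.03), H2-M10.4 at 36430905 (-0.89, SE 0.13, limma adjusted p = 7.79e-09) and a second H2-M5 peak (-0.87) completed the 5 largest falls. At H2-Q7, a Qa-2 gene, the start site peak held 2189 to 2452 normalized reads in aged and 2631 to 3060.5 in young OTC libraries, again without overlap (log2 fold change -0.29, SE 0.03, limma adjusted p = 8.45e-14). The 1 class Ib site called higher was H2-Q2 at 35350681 (log2 fold change 0.47, limma adjusted p = 0.000148), by 0.62 in Ttran and 0.82 in Tterm but -0.02 in Tprog.

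Of the 17 peaks at genes that make, carry and load class I peptides, 5 were called lower and 1 higher, and the other 11 did not pass the test. Psmb10, a catalytic subunit of the immunoproteasome, held 436 to 560.0 normalized reads at its start site in aged and 551 to 610.4 in young OTC libraries, which overlap (log2 fold change -0.23, SE 0.07, limma adjusted p = 0.00407). The peak assigned to Tap1, a subunit of the peptide transporter, holds the start of Psmb8 and had a log2 fold change of -0.27 (limma adjusted p = 9.11e-06). Tapbp (tapasin) had -0.18, Tap2 at 34201596 had -0.18 and Psmb9 at 34170713, 10187 bp from the gene, had -0.25. The peak that holds the starts of both Psmb9 and Tap1 (34186398) was not called. A second Tap2 peak, at 34218478, was the 1 called higher (log2 fold change 0.36, SE 0.12, limma adjusted p = 0.0142), a call lost in 3 of 14 fits without a library (adjusted p up to 0.0628). Nlrc5, the class I transactivator, was called in both directions. It was lower at its strongest peak, which overlaps the gene at 94433658. There aged OTC libraries ran from 708 to 909 and young ones from 918 to 1165 normalized reads. These did not overlap (log2 fold change -0.30, SE 0.05, limma adjusted p = 3.46e-07). It was higher at 94447204, with 440 to 665 normalized reads in aged and 375 to 588 in young OTC libraries (log2 fold change 0.21, SE 0.06, limma adjusted p = 0.00554), and at the weak site 94441693, with 22.6 to 89.3 against 23.4 to 46.1 (0.62, SE 0.24, limma adjusted p = 0.033). Both pairs of ranges overlap. The call at 94447204 had an adjusted p of 0.0571 without the first young Tprog library, and that at 94441693 was lost in 6 of 14 fits without a library (adjusted p up to 0.226). The other 9 Nlrc5 peaks did not pass the test.

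**Figure D3:**
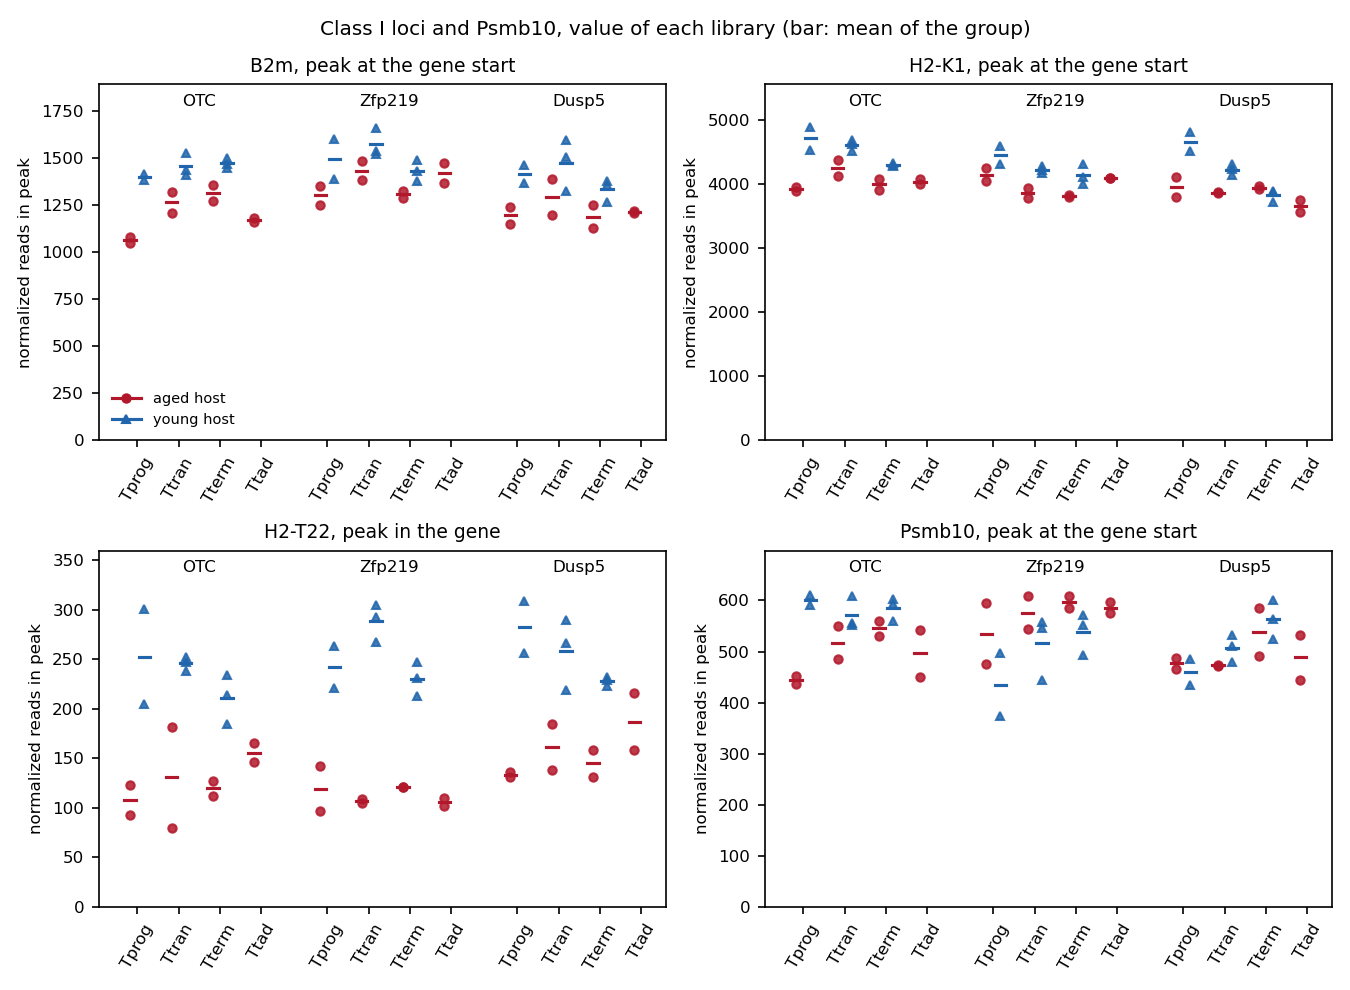
Normalized reads per library (vertical axis) at the class I sites of B2m, H2-K1 and H2-T22 and at Psmb10, by perturbation and sorted state (horizontal axis). Red circles are aged and blue triangles young hosts, 1 symbol per library, and bars mark group means. At B2m the aged OTC libraries of Tprog, Ttran and Tterm lie at 1049.6 to 1356, below the young ones at 1383 to 1525, and the aged Zfp219 libraries lie at 1252 to 1482.

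Marker genes of T cells and of other cell types were read beside these results, over the same 6 aged and 8 young OTC libraries. Of the 8 T cell genes 5 were called lower in aged hosts (Cd3e, Cd3g, Cd8a, Cd8b1 and Cd2) and Cd5 higher, with a median log2 fold change of -0.16, beside -0.22 for class Ia and -0.23 for class Ib peaks. For B cells the sum was taken over Pax5 and Blk, at a level of 465 to 571 normalized reads in aged and 506 to 696 in young libraries, and Pax5 was called lower (-0.47). For macrophages and dendritic cells 7 of 10 genes had a peak, with sums of 907 to 1419 (median 1224) in aged and 1044 to 1360 (median 1245) in young libraries. Flt3 was called higher (0.66) and Itgax (-0.53) and Spi1 (-0.47) lower, and the median log2 fold change of the 7 genes was 0.15. Of the 4 melanoma genes with a peak 2 were called lower, with sums of 1163 to 1284 in aged and 1220.4 to 1537 in young libraries. The part of these cells in the differences by age was not tested.

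The second question was how the sorted states of control cells differ. In young hosts class II sites were more open in Tprog than in Tterm: 8 of 24 were called higher and 1 lower, with a median log2 fold change of 0.33. In all, 28 member peaks (23.9%) were called, 19 higher and 9 lower in Tprog, against a background of 26.5% of all peaks, 13.9% higher and 12.6% lower. The median log2 fold change was 0.02 over members and 0.0072 over all peaks. Leaving out the first young Tprog library left 15 calls, and the other 4 fits without a library left up to 26.

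In young cells the Cd74 body peak described above was the class II site with the clearest step between states. Its log2 fold change between Tprog and Tterm was 1.38 (SE 0.15, limma adjusted p = 1.31e-12), and the second Cd74 peak had 1.64 (SE 0.35, limma adjusted p = 0.000113). H2-Eb1 at its start site held 249 and 179.7 normalized reads in young Tprog and 127, 121 and 111 in Tterm, so the states did not overlap (log2 fold change 0.82, SE 0.18, limma adjusted p = 0.000163). That call was lost without the first Tprog library (0.58, adjusted p = 0.0555). At the H2-Aa start site the young Tprog libraries held 65.2 and 104 and the Tterm libraries 40.5, 31.5 and 50.1 (log2 fold change 1.03, SE 0.32, limma adjusted p = 0.0101). Without the second Tprog library that value was 0.69 (adjusted p = 0.255), and the same omission ended the call of H2-Ab1 at 34257499 (1.02 with it, 0.66 without, adjusted p = 0.154). Outside class II, Calr, the chaperone calreticulin, held 1726 and 1678 in young Tprog and 1317, 1381 and 1406 in Tterm, without overlap (log2 fold change 0.31, SE 0.07, limma adjusted p = 0.000204).

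Marker genes of other cells also differed between these gates. Of the 2 B cell genes with a peak, Pax5 was higher in Tprog than in Tterm by 1.07 in young and 0.93 in aged OTC cells on the log2 scale, while Blk had -0.31 in young cells (limma adjusted p = 0.0946) and was called lower in aged ones (-0.42, limma adjusted p = 0.0408). Of the 7 macrophage and dendritic cell genes, Flt3 (-0.94) and Xcr1 (-0.66) were lower in young Tprog. In aged Tprog Xcr1 (-1.04) and Cd68 (-0.47) were lower and Clec9a (1.72) higher. Their part in the values of class II and the other roles was not tested.

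In aged hosts 11 of 51 class Ib peaks were called lower and 2 higher in Tprog than in Tterm, and 38 did not pass the test. The class Ib median log2 fold change was 0.04, of the other sign than most of its calls. Class II had 0 higher and 2 lower of 24 and a median log2 fold change of 0.18. In all, 23 member peaks (19.7%) were called, 3 higher and 20 lower, against 20.1% of all peaks, 8.88% higher and 11.2% lower, with medians of 0.02 for members and 0.01 for all peaks. Under quantile normalization, which forces all libraries to the same distribution, the split was 6 higher and 14 lower. Each group here has 2 libraries, and leaving out any of them left 10 to 14 calls: 13 and 14 without the first and second Tprog library, and 10 and 13 without the first and second Tterm library.

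The largest step was at H2-Q4, a class Ib gene, in a peak 1683 bp from the gene body (35377421 to 35377934). Aged OTC libraries held 96.2 and 98.5 normalized reads in Tprog, 265 and 174 in Ttran, 281 and 285 in Tterm, and 159 and 197 in Ttad. Tprog was lowest and Tterm highest, with Ttran and Ttad between them. The log2 fold change of Tprog against Tterm was -1.53 (SE 0.19, limma adjusted p = 1.79e-10) in aged and -0.56 (SE 0.17, limma adjusted p = 0.00927) in young hosts. In young hosts the libraries held 181 and 201 in Tprog and 264, 289 and 290.2 in Tterm, and that call was lost without the first Tprog library (-0.48, adjusted p = 0.116).

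H2-Q2, another Q gene, stepped in the same order at 35350681. Aged OTC held 172 and 165 in Tprog, 445 and 386 in Ttran, 417 and 449 in Tterm, and 262 and 203 in Ttad, with Tprog below and Ttran and Tterm above all others. The log2 fold change of Tprog against Tterm was -1.36 (SE 0.19, limma adjusted p = 2.37e-08) in aged and -0.51 (SE 0.18, limma adjusted p = 0.0222) in young hosts. The young call was lost in 3 of 5 fits without a library (adjusted p up to 0.134, without the first Tprog library).

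H2-M10.4, a vomeronasal class Ib gene, is assigned a peak 26770 bp away (36430905). It held 58.9 and 57.7 in aged Tprog, 90.3 and 107 in Ttran, 148 and 136 in Tterm, and 67.1 and 72.7 in Ttad. Tprog was again the lowest and Tterm the highest (log2 fold change -1.27, SE 0.23, limma adjusted p = 1.05e-05). Young hosts gave -0.81 (SE 0.21, limma adjusted p = 0.0019), and -0.42 (adjusted p = 0.28) without the first Tprog library. H2-Q1 at 35310946 (-1.18, SE 0.22, limma adjusted p = 1.51e-05) and a class II site, H2-Oa at 34096365, also fell in aged Tprog.

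H2-Oa at 34096365 lies 1131 bp from its gene and held 532 and 507 normalized reads in aged Tprog, 740.1 and 676 in Ttran, 975 and 918 in Tterm, and 775 and 817 in Ttad. The 4 states did not overlap, with Ttran below Ttad (log2 fold change of Tprog against Tterm -0.86, SE 0.12, limma adjusted p = 1.74e-08). In young hosts the difference was -0.07 (SE 0.11) and not called. B2m was lower in aged Tprog than in Tterm by -0.30 (SE 0.08, limma adjusted p = 0.00223), a call lost under quantile normalization and without the first Tterm library (-0.26, adjusted p = 0.0632). The 3 sites called higher were weaker or less stable: H2-M5 at 36992287 (1.32), H2-T3 at 36205141 (0.42) and H2-K1 at 33980987 (0.33) lost their calls in 3, 3 and 2 of 4 fits without a library. The H2-T3 site lies 14990 bp from its gene. The H2-K1 site lies 13622 bp from H2-K1 and holds the start of AA388235.

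**Figure D4:**
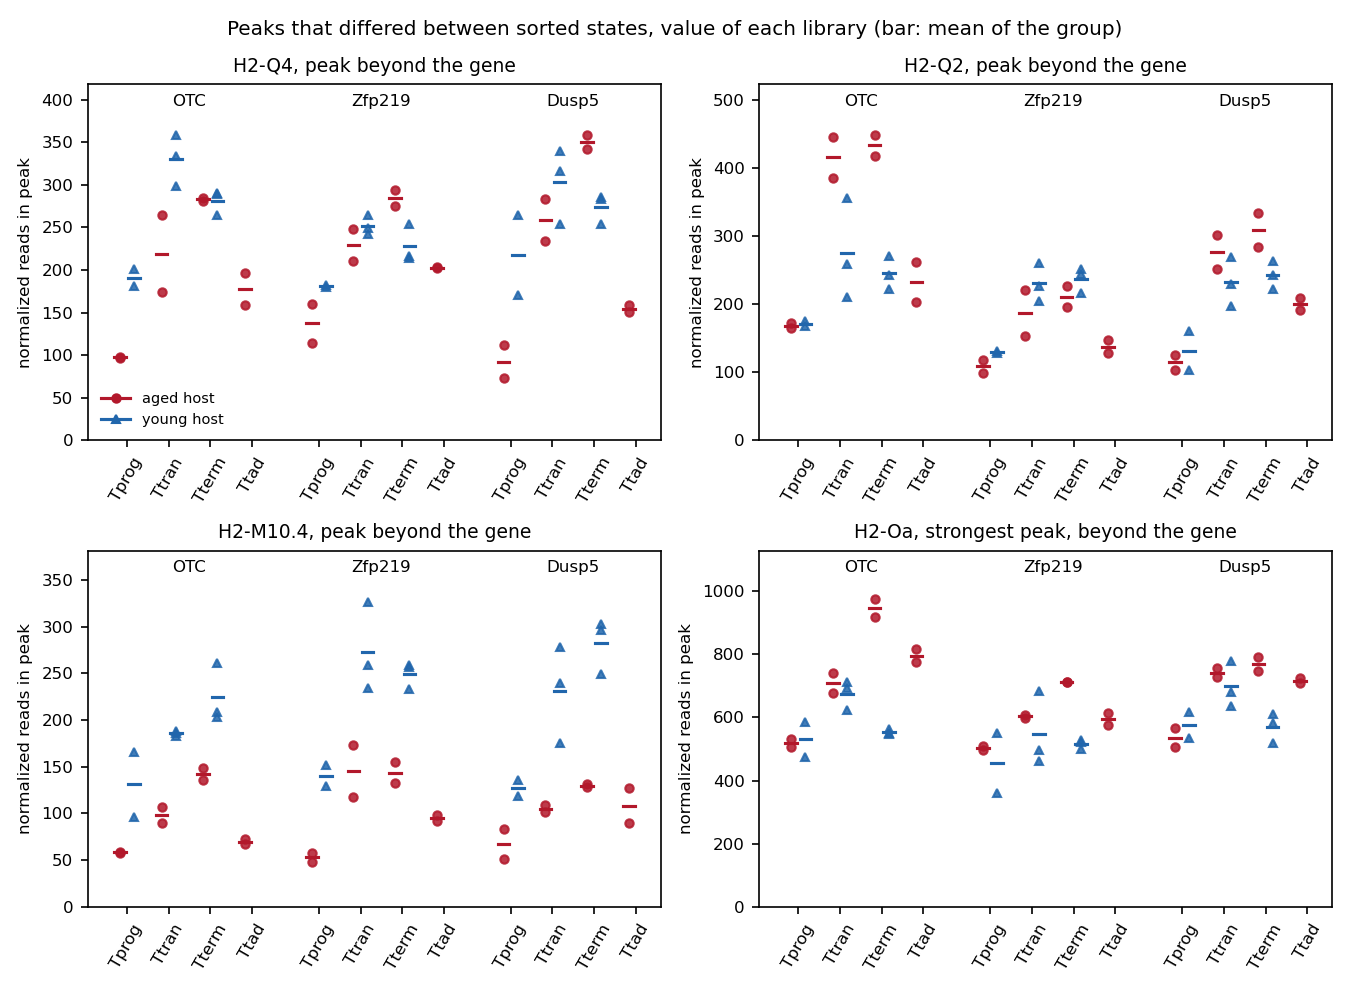
Normalized reads per library (vertical axis) at H2-Q4, H2-Q2, H2-M10.4 and H2-Oa, by perturbation and sorted state (horizontal axis). Red circles are aged and blue triangles young hosts, 1 symbol per library, and bars mark group means. At H2-Q4 the aged OTC Tprog libraries lie at 96.2 and 98.5 and the Tterm libraries at 281 and 285, with Ttad at 159 and 197 between them.

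In Ttad, the state with neither surface protein, H2-Q4, H2-Q2 and H2-M10.4 were at levels between those of Tprog and Tterm, and few members were called. Against Tterm 9 member peaks (7.69%) were called, 0 higher and 9 lower, and 6 of the 9 were class Ib. The background was 7.28% of all peaks, 3.02% higher and 4.26% lower, and the medians were -0.09 for members and 0.0014 for all peaks. Fits without a library left 4 to 7 calls: 4 without the first Ttad library, 4 without the first Tterm library and 5 without the second. H2-M10.4 at 36430905 (-1.01, SE 0.23, limma adjusted p = 0.00178) and H2-Q2 at 35350681 (-0.91, SE 0.19, limma adjusted p = 0.000692) fell in Ttad, with the library values given above. The H2-Q2 call was lost without the second Ttad library (-0.72, adjusted p = 0.0513). The larger values of Pdia3 at 121434831 (-2.28), Ciita at 10521175 (-1.68) and H2-Q1 at 35306352 (-1.20) were lost in the edgeR test and when the 2 groups were fitted alone.

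Against Tprog 4 member peaks (3.42%) were called in Ttad, 3 higher and 1 lower, against 6.55% of all peaks, 3.82% higher and 2.73% lower. The medians were -0.0082 for members and -0.0027 for all peaks, and without the first Ttad library 2 calls were left. H2-Q4 at 35377421 (0.86, SE 0.19, limma adjusted p = 0.00114) and H2-Oa at 34096365 (0.61, SE 0.12, limma adjusted p = 0.000292) were higher in Ttad. The H2-Q4 call had an adjusted p of 0.0511 without the second Ttad library. Calr was higher by 0.25, a call lost under quantile normalization, where the split became 2 and 2. H2-Q1 at 35306352 was lower (-1.67, SE 0.37, limma adjusted p = 0.0012), and had an adjusted p of 0.072 without the first Ttad library.

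The step from Tprog to Tterm was tested for a difference between ages. At 4 member peaks (3.42%) it differed, 0 higher and 4 lower in aged hosts, against 2.32% of all peaks, 0.512% higher and 1.81% lower, with medians of -0.16 for members and -0.03 for all peaks. At Cd74 the young step of 1.38 and the aged step of 0.31 differed by -1.07 (SE 0.22, limma adjusted p = 0.0013). At H2-Q4 the difference was -0.97 (SE 0.25, limma adjusted p = 0.017), at H2-Oa -0.80 (SE 0.17, limma adjusted p = 0.00126) and at Calr -0.51 (SE 0.10, limma adjusted p = 0.000806). Without the second young Tprog library 1 call was left, Cd74 and H2-Oa then having adjusted p of 0.0507 and 0.053 and H2-Q4 of 0.0999. Under quantile normalization Calr lost its call, and 1 peak was called higher and 3 lower. Over all peaks the share of calls that were higher moved from 22.1% to 46.8% under that normalization.

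The third question was what the Zfp219 label does to these sites. In aged hosts, with the 4 states weighted equally (8 against 8 libraries), class II sites were less open in Zfp219 cells: 8 of 24 were called lower and 3 higher, with a median log2 fold change of -0.12. Of 8 class Ia peaks 2 were called higher and 0 lower, and of 51 class Ib peaks 9 and 5, with medians of 0.09 and 0.03. Of 6 peptide making peaks 3 were called higher and 0 lower, and of 11 transport and loading peaks 3 and 2. Among regulators 1 of 16 rose and 3 fell. The aged OTC libraries of Tprog, Ttran and Tterm serve both here and in the comparison of ages, so an opposite sign in those 2 comparisons is not independent.

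In all, 39 member peaks (33.3%) were called in aged Zfp219 cells, 21 higher and 18 lower. Over all peaks 25.8% were called, 12.1% higher and 13.7% lower, and the medians were 0.03 for members and 0.0064 for all peaks. Of the 22 peaks known to lie over their own start site 7 rose and 1 fell (median 0.03). Over all peaks with a start site 20.7% rose and 6.96% fell, with a median of 0.06. The higher calls at class I start sites thus stood in a comparison where start sites in general were called higher more often than lower.

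At the distal H2-Aa site (34295580) aged Zfp219 libraries held 382 and 371 normalized reads in Tprog, 252 and 289.6 in Ttran, 295 and 291 in Tterm, and 368 and 299 in Ttad. The aged OTC libraries, given above for 3 states, held 614 and 589 in Ttad. Every Zfp219 library lay below every aged OTC library (log2 fold change -0.71, SE 0.07, limma adjusted p = 1.36e-13). By state the log2 fold change was -0.51 (Tprog), -0.73 (Ttran), -0.74 (Tterm) and -0.86 (Ttad), each called. The neighbour at 34293229 fell by 0.73 on the log2 scale (SE 0.09, limma adjusted p = 4.55e-10).

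H2-Eb2 at 34347529 held 213 and 163 in aged Zfp219 Tprog, 162 and 114 in Ttran, 146 and 204 in Tterm, and 119 and 146 in Ttad. All 8 lay below the 8 aged OTC libraries, which ran from 222 to 365 (log2 fold change -0.77, SE 0.10, limma adjusted p = 1.06e-09). The Cd74 body peak held 445 and 354 in Zfp219 Tprog, 196 and 172 in Ttran, 214 and 233 in Tterm, and 276 and 247 in Ttad. Aged OTC held 458 and 404 in Ttad, so the 2 labels overlapped in Tprog and were apart in the other 3 states. The log2 fold change was -0.56 over states (SE 0.08, limma adjusted p = 3.94e-08), and by state it was -0.09 for Tprog (adjusted p = 0.874), -0.83 for Ttran, -0.61 for Tterm and -0.72 for Ttad. H2-Eb1 fell at its start site by 0.48 (SE 0.10, limma adjusted p = 7.06e-05), with 153 to 239 normalized reads against 207 to 326 in aged OTC, ranges that overlap, though within each state both Zfp219 libraries lay below both OTC libraries.

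The largest fall was at a class Ib site, H2-Q2 at 35350681. Aged Zfp219 libraries held 118 and 99.5 in Tprog, 220.4 and 153 in Ttran, 227 and 195 in Tterm, and 148 and 128 in Ttad. Within each state both lay below both OTC libraries, while the pooled ranges overlapped because the states differ (log2 fold change -0.90, SE 0.10, limma adjusted p = 1.31e-12). H2-Q1 at 35310946, some 8423 bp from its gene, also fell (-0.68, SE 0.11, limma adjusted p = 6.42e-07).

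B2m was called higher in aged Zfp219 cells, with 1252 to 1482 normalized reads (median 1359) against 1049.6 to 1356 (median 1194) in aged OTC. The pooled ranges overlapped (log2 fold change 0.19, SE 0.04, limma adjusted p = 0.00012), and by state the value was 0.29 (Tprog), 0.18 (Ttran), -0.01 (Tterm) and 0.28 (Ttad). Psmb10 rose by 0.20 (SE 0.06, limma adjusted p = 0.0102), with 475 to 608 against 436 to 560.0. Its call had an adjusted p of 0.0628 without the second Zfp219 Tprog library. A peak at 35460158, 8416 bp from H2-Q10, a secreted class I gene in liver, rose by 0.31 (SE 0.07, limma adjusted p = 0.000179). Another at 35358780, 12016 bp from H2-Q2 and overlapping the pseudogene H2-Q3, rose by 0.42 (SE 0.15, limma adjusted p = 0.0231). The latter call was lost without the first Zfp219 Ttran library. Over Tprog, Ttran and Tterm the start site peaks of H2-Q10 (35468326) and H2-Q2 (35342072) had -0.08 and -0.02. H2-K1 and H2-D1 did not pass the test at their start sites (-0.03 and -0.04, SE 0.02 and 0.03).

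Marker sums in aged Zfp219 libraries were 441 to 554 for the B cell genes, 1025 to 1280 for macrophages and dendritic cells and 859 to 1304 for melanoma. In aged OTC they were 465 to 575, 907 to 1419 and 1150.3 to 1374. Of single markers Flt3 was called lower (-0.40) and Itgax (0.36) and Spi1 (0.24) higher, and 3 of the 4 melanoma genes were called lower. Of the 8 T cell genes 3 were called higher and 1 lower. The part of these cells in the class II values was not tested.

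In young hosts the Zfp219 label went with fewer calls, and class II was not the group that fell. Of 24 class II peaks 3 were called higher and 1 lower, while 8 peaks of the other roles were called lower and 0 higher. In all, 12 member peaks (10.3%) were called, 3 higher and 9 lower, against 7.07% of all peaks, 1.92% higher and 5.15% lower. The medians were -0.0054 for members and -0.00049 for all peaks. Under quantile normalization the split was 6 higher and 5 lower, and without the second Zfp219 Tprog library 6 calls were left.

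At the distal H2-Aa site the young Zfp219 libraries held 399 and 344 in Tprog, 305, 287 and 281 in Ttran, and 297, 245 and 243 in Tterm, against the young OTC values of 199.5 to 288. They lay above OTC throughout Tprog and Ttran and overlapped it in Tterm (log2 fold change 0.30, SE 0.07, limma adjusted p = 0.00468). H2-Eb1 held 257 and 331 in Tprog, 160.2, 141 and 195 in Ttran, and 140.1, 161 and 165 in Tterm. In Tprog and Tterm every value was above the young OTC libraries of that state, and in Ttran the ranges overlapped (log2 fold change over states 0.39, SE 0.10, limma adjusted p = 0.00592; 0.0764 without the second OTC Tprog library). H2-Ab1 at 34262923, the beta chain of I-A, was called at 0.22 (limma adjusted p = 0.0406), but lost its call in 12 of 16 fits without a library.

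Psmb10 fell in young Zfp219 cells, with 498 and 373 normalized reads in Tprog, 546, 558 and 445 in Ttran, and 493, 552 and 572 in Tterm. Young OTC held 610.4 and 590.4, 556, 609 and 551, and 593, 604 and 559.6, so Tprog was apart and the later states overlapped (log2 fold change -0.25, SE 0.06, limma adjusted p = 0.00431). Without the second Zfp219 Tprog library the value was -0.18 (adjusted p = 0.0928). A peak at 36024733, 3536 bp from H2-T23, the gene of Qa-1, fell by 0.27 (SE 0.06, limma adjusted p = 0.00186). The peak over the H2-T23 start site (36030758) had a log2 fold change of -0.03. H2-K1 fell at its start site by 0.09 (SE 0.02, limma adjusted p = 0.0131), a call lost without the first OTC Tprog library.

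The difference between the aged and the young Zfp219 effect was itself tested over Tprog, Ttran and Tterm, the 3 states that both ages have. Ttad is left out of it, so its values are not the aged effects over 4 states given above less the young ones. The OTC libraries of both ages enter this contrast, so it is not independent of the age difference in OTC cells given above. It passed at 15 member peaks (12.8%), 5 higher and 10 lower in aged hosts, against 9.11% of all peaks, 4.09% higher and 5.01% lower. The medians were 0.04 for members and 0.0048 for all peaks. Class II made up 6 of the 10 lower calls, at 6 of its 24 peaks: the 2 distal H2-Aa sites (-0.95 at 34295580, SE 0.11, limma adjusted p = 3.71e-10, and -0.61 at 34293229), both H2-Eb1 sites (-0.75 at 34304684 and -0.93 at 34313191), H2-Eb2 (-0.75) and Cd74 (-0.61). The class Ib sites H2-Q1 at 35310946 (-0.82) and H2-Q2 at 35350681 (-0.72) were also lower. Among the higher calls Psmb10 had the second largest value (0.43, SE 0.09, limma adjusted p = 0.000771), with 0.18 in aged and -0.25 in young cells over those 3 states. The distal H2-Aa site (34295580) had -0.66 in aged and 0.30 in young cells, H2-Eb1 at its start site -0.36 and 0.39, H2-Eb2 -0.68 and 0.06, and Cd74 -0.51 and 0.10.

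**Figure D5:**
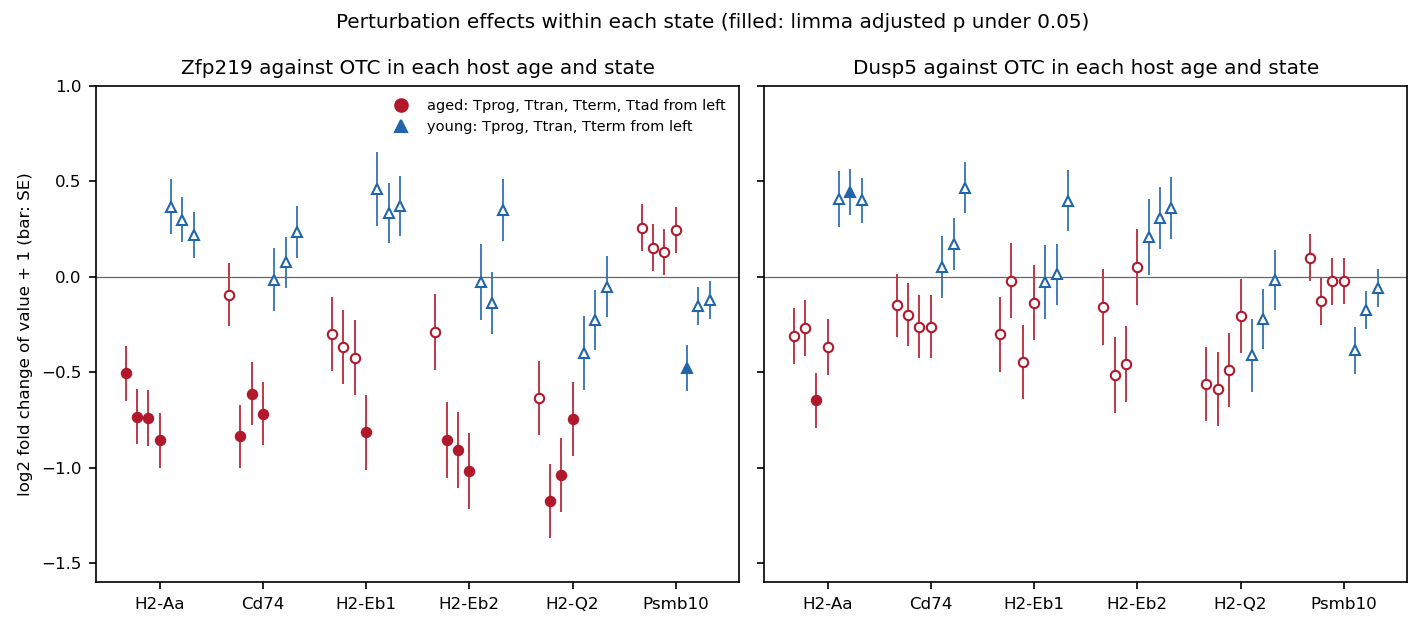
Log2 fold change against OTC of the same age and state (vertical axis) at H2-Aa, Cd74, H2-Eb1, H2-Eb2, H2-Q2 and Psmb10 (horizontal axis), for Zfp219 on the left and Dusp5 on the right. Points are limma estimates for single states, from left Tprog, Ttran, Tterm and, in aged hosts, Ttad, with bars for their standard errors; red circles are aged and blue triangles young hosts, filled where called. At H2-Aa the aged Zfp219 values run from -0.51 to -0.86 and the young ones from 0.22 to 0.37.

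The last question was the same for the Dusp5 label. In aged hosts 12 member peaks (10.3%) were called, 4 higher and 8 lower, against 12.2% of all peaks, 4.35% higher and 7.87% lower, with medians of -0.03 for members and 0.0072 for all peaks. That share is near the background. Zfp219 and Dusp5 cells are compared with the same OTC libraries, so likeness between the 2 is not independent and their values are only set side by side. The edgeR test called 7, quantile normalization gave 10 higher and 4 lower, and 6 and 7 calls were left without the first OTC Ttad and the second Dusp5 Ttran library.

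The distal H2-Aa site held 468 and 397 normalized reads in aged Dusp5 Tprog, 359 and 387 in Ttran, 339.8 and 287 in Tterm, and 517 and 419 in Ttad. Within each state both libraries lay below both OTC libraries (log2 fold change -0.40, SE 0.07, limma adjusted p = 2.6e-05, beside -0.71 for Zfp219). H2-Q2 at 35350681 fell by 0.46 (SE 0.10, limma adjusted p = 0.000303, beside 0.90 for Zfp219) and H2-Q1 at 35310946 by 0.52 (SE 0.11, limma adjusted p = 0.000368, beside 0.68). Cd74 (-0.22, SE 0.08), H2-Eb1 (-0.22, SE 0.10) and H2-Eb2 (-0.27, SE 0.10) did not pass the test, with limma adjusted p of 0.0693, 0.123 and 0.0588. Of the sites called higher, H2-D1 at 35269246 (0.35), H2-T22 (0.31) and Pdia3 at 121434831 (0.89) lost their calls in the edgeR test, and H2-Q7 at 35442065 (0.31) lost it in 7 of 16 fits without a library. The small fall at H2-K1 (-0.07, SE 0.02, limma adjusted p = 0.0312) turned to 0.000233 under quantile normalization.

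In young hosts 6 member peaks (5.13%) were called, 1 higher and 5 lower, against 3.82% of all peaks, 1.8% higher and 2.02% lower, with medians of -0.02 for members and -0.0043 for all peaks. Quantile normalization gave 2 higher and 2 lower. Leaving out the second Dusp5 Tprog library, the first OTC Tprog library or the second left 3 calls each. Nlrc5 held 3 of the lower calls, all inside the gene. At 94491882 young Dusp5 libraries held 107 and 42.1 in Tprog, 62.0 to 95.9 in the 3 Ttran libraries, and 86.6, 88.9 and 117 in Tterm. Young OTC held 142 and 141, then 86.5, 87.6 and 105, then 98.6, 109 and 138, so only Tprog was apart (log2 fold change -0.54, SE 0.14, limma adjusted p = 0.00808). Without the second Dusp5 Tprog library it was -0.32 (adjusted p = 0.218).

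At 94485081 in Nlrc5 the young Dusp5 libraries held 27.1 to 69.3 normalized reads and the OTC libraries 65.2 to 90.4, with an overlap through the Tterm libraries (log2 fold change -0.70, SE 0.18, limma adjusted p = 0.0115; 0.0729 without the first Dusp5 Tprog library). The 1 site called higher was again the distal H2-Aa site, with 357 and 406 in Tprog, 345, 318 and 303 in Ttran, and 273, 273 and 345 in Tterm. Within each state these lay above the OTC libraries (log2 fold change 0.42, SE 0.07, limma adjusted p = 6.22e-05). H2-K1 fell by 0.10 (SE 0.02, limma adjusted p = 0.00468; 0.0611 without the first OTC Tprog library), a call also lost under quantile normalization.

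Over the same 3 states, the Dusp5 effect differed between ages at 3 member peaks (2.56%), 0 higher and 3 lower in aged hosts, against 4% of all peaks, 1.27% higher and 2.73% lower, with medians of 0.01 for members and 0.0034 for all peaks. All 3 are class II sites. They were H2-Aa at 34295580 (-0.83, SE 0.11, limma adjusted p = 9.69e-08), H2-Eb2 (-0.67, SE 0.15, limma adjusted p = 0.00287) and Cd74 (-0.43, SE 0.13, limma adjusted p = 0.0311). The Cd74 call was lost under quantile normalization and in 9 of 28 fits without a library, with an adjusted p up to 0.113 without the second aged Dusp5 Ttran library. Under quantile normalization the split was 1 higher and 2 lower. The OTC libraries of both ages enter here as they do for Zfp219. The Zfp219 and Dusp5 contrasts are thus not independent of each other or of the age difference in OTC cells.

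A wider list of interferon signalling, class II regulation and peptide processing genes was read at the strongest peak of each gene, of which 30 of 32 symbols had one. By host age 7 of the 30 rose and 7 fell, with a median log2 fold change of 0.01, where 17.3% of all peaks rose and 19.1% fell. Of peaks with a start site, 16.4% rose and 13.4% fell. Batf3, a factor needed for a class of dendritic cells and also made by activated T cells, rose (0.43), as did Marchf1 (1.62), a ligase that removes class II from the surface. Irf9, part of the interferon response complex, fell (-0.34), as did the class II protease Ctss (-0.38) and the X box factor Rfx5 (-0.16). In aged Zfp219 cells 7 rose and 7 fell, where 12.1% of all peaks rose and 13.7% fell and, of peaks with a start site, 20.7% and 6.96%. Irf1 (0.19), Stat2 (0.19), Irf9 (0.18) and the proteasome activator Psme1 (0.24) were among the higher and Batf3 (-0.33) and the interferon-gamma receptor chain Ifngr2 (-0.24) among the lower. In young Zfp219 cells 0 rose and 4 fell, against 1.92% and 5.15% of all peaks and 1.4% and 5.57% of those with a start site.

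For Dusp5 the wider list had 1 of 30 genes higher and 10 lower in aged hosts, against 4.35% and 7.87% of all peaks and 2.58% and 9.15% of those with a start site. In young hosts 0 were higher and 2 lower, against 1.8% and 2.02% of all peaks and 0.822% and 2.56% of those with a start site. Between Tprog and Tterm of young OTC cells 7 were higher and 4 lower in Tprog, with Batf3 at 0.74, Ifngr2 at 0.54 and Irf1 at -0.34. The shares were 13.9% and 12.6% over all peaks and 8.69% and 16.2% over those with a start site. In aged OTC cells 1 was higher and 2 lower, against 8.88% and 11.2% of all peaks and 4.08% and 8.12% of those with a start site. The step of Batf3 differed between ages by -0.81 on the log2 scale, the 1 gene of the list for which that difference passed the test.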

How the data were processed

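ATAC-seq of 48 libraries was read from 1 deposited table that holds a normalized signal for 53868 peaks, which the authors made. Bowtie2 2.2.9, Picard 2.8.0, MACS2 2.1.1, SAMtools 1.3.1, DESeq2 1.28.1 and mm10 are named in the submitters' processing notes, without their settings; how duplicates were handled and whether insertion sites were shifted is not given in the sources used here. In each library the deposited signal is a whole multiple of 1 step, so whole reads were recovered for 100% of values (tolerance 0.001 reads); depth is their sum per library.

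limma 3.58.1 (R 4.3.3) was fitted on log2(signal + 1), which understates changes of weak peaks, with lmFit, eBayes with a trend and 1 mean per group over all 48 libraries. P-values were Benjamini-Hochberg adjusted over 53868 peaks and called under 0.05. edgeR 4.0.16 (quasi-likelihood, TMM) on the recovered reads called 1722 to 20626 peaks in the 12 comparisons, against 1250 to 19651 by limma. The other settings tried were TMM scaling, quantile normalization, 8 as the pseudocount, a table without its weakest 25% of peaks, fitting the compared groups only, library quality weights, a replicate block and leaving out each library. The fits were also run on simulated counts without the age and state differences of this series, so that run does not cover such differences.

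Groups came from the sample titles. Named peaks are each gene's strongest, and up to 5 called in each direction with the largest fold change per comparison, with other assigned peaks of those genes named after their values were seen. Genes, lists and comparisons were chosen with earlier results of these data known. 1 of the listed marker genes is not reported here.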

Additional observations from a re-analysis of the deposited data

Results flagged for a closer look

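The results below differ between host ages by a test of the difference itself (a limma interaction contrast, Benjamini-Hochberg adjusted over all peaks); values are log2 differences, aged minus young.

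For the step from Tprog to Tterm in OTC cells, the difference was -1.07 at Cd74 (60803224), -0.97 at H2-Q4 (35377421), -0.80 at H2-Oa (34096365) and -0.51 at Calr. The sign means that Tprog stood lower relative to Tterm in aged than in young hosts. It does not tell which of these states differed by age.

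For the effect of the Zfp219 label over Tprog, Ttran and Tterm, 6 of 24 class II sites passed the test of the difference, each with the more negative value in aged hosts. The differences were -0.95 at H2-Aa (34295580), -0.61 at H2-Aa (34293229), -0.75 at H2-Eb1 (34304684), -0.93 at H2-Eb1 (34313191), -0.75 at H2-Eb2 and -0.61 at Cd74. Class Ib sites gave -0.82 at H2-Q1 (35310946), -0.74 at H2-Q1 (35320397), -0.72 at H2-Q2 (35350681), 0.44 at H2-Q4 (35377421), 0.33 at H2-Q10 (35460158) and 0.29 at H2-T24 (36019942). Tap2 gave -0.72 at 34218478 and 0.22 at 34201596, and Psmb10 gave 0.43. Leaving out a library ended the calls at H2-Q1 (35320397) in 16 of 28 fits, at H2-Q4 in 12, at H2-T24 in 10 and at H2-Q10 in 7.

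For the effect of the Dusp5 label over the same 3 states, the differences were -0.83 at H2-Aa (34295580), -0.67 at H2-Eb2 and -0.43 at Cd74. The differences for Zfp219 and Dusp5 share the OTC libraries of both ages. They are not independent of each other or of the age difference in OTC cells.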

How the results depend on the processing

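There were 204 called combinations of a member peak and a comparison, counted whether or not the peak is named above. Of these, 165 kept their call under all alternatives other than leaving out a library, 106 under every fit without a library and 103 under all. Quantile normalization ended 31 calls, the edgeR test 10, a fit of the compared groups only 9, library quality weights 6, the replicate block 4, TMM scaling 1, and a pseudocount of 8 or removal of weak peaks 0. Any called member peak among the removed ones was not fitted in that setting, so its call could not be lost there. The counts of kept calls screen for loss of the call at an unchanged sign, so a combination that changed sign can count as kept. Outside the fits without a library, the 1 reversal was H2-K1 in aged Dusp5 cells, at 0.000233 under quantile normalization. Its cause was not tested. Counts of called members moved by over 1.5 times as follows. The difference by age of the step from Tprog to Tterm went from 4 to 9 with the compared groups only and 7 with library quality weights, the Dusp5 effect by age from 3 to 5 with the compared groups only, and Dusp5 in aged hosts from 12 to 7 with edgeR. Fits without a library gave 10 to 14 calls for aged Tprog against Tterm, 15 to 26 for young, 4 to 7 for Ttad against Tterm, 2 to 4 for Ttad against Tprog, 1 to 4 for the difference of that step by age, 6 to 13 for Zfp219 in young hosts, 6 to 12 for Dusp5 in aged and 3 to 5 for Dusp5 in young hosts. Where these leave an arm with 1 library, it is assumed to vary like the other groups. Same-numbered libraries of groups of equal size did not deviate together (correlations of -0.0184 to 0.017). A small effect shared by pools of the same mice would not show in these values, so they cannot decide whether the numbers pair the samples. With the replicate block the counts were 23 for aged and 26 for young Tprog against Tterm, 50 for age and 39 for Zfp219 in aged hosts.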
